A study of Mus musculus with 6 samples.

Results

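Cyclin-dependent kinase (CDK) inhibitor genes were examined in mouse embryonic fibroblasts (MEFs) undergoing reprogramming toward induced pluripotent stem cells, with and without AKT activation. The 7 genes were taken by their symbols from the 54331 genes measured: Cdkn2a, Cdkn2b, Cdkn2c and Cdkn2d of the INK4 family, and Cdkn1a, Cdkn1b and Cdkn1c of the Cip/Kip family. All 7 passed the filter on low values, a mean of at least 1 TPM (a transcript level corrected for length and for the size of the library) over the 6 wells, which left 15382 genes to test. These genes are discussed as barriers to reprogramming. The values here are RNA levels, and reprogramming efficiency was not among them.

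Both groups were male MEFs from E13.5 embryos of an Oct4-EGFP transgenic mouse on a mixed background of C57BL/6, DBA/2 and ICR. All cells had received retroviruses for Oct4, Sox2 and Klf4 (OSK) together with AKT-MER, a myristoylated AKT joined to a modified estrogen receptor, so that both groups carried the same 4 factors (OSKA). The OSKA + 4OHT group (n = 3 wells) was given 4-hydroxytamoxifen (4OHT), which switches AKT-MER on, and the OSKA − 4OHT group (n = 3 wells) was mock treated. RNA was collected at 10 days post-infection (dpi). The groups differ both in 4OHT itself and in AKT activity, and these cannot be told apart here. Per the study's methods, MEFs of several embryos were pooled, and transduced cells were divided over the wells of a plate before 4OHT was added. The wells are therefore splits of a shared pool and not separate animals, and the p-values measure only the spread between wells.

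CDK inhibitors brake the cell cycle by different routes. INK4 proteins bind CDK4 and CDK6 and keep cyclin D from activating them, which holds RB in the form that represses E2F. Cip/Kip proteins bind CDK complexes more broadly, above all cyclin E-CDK2 and cyclin A-CDK2. Cdkn2a encodes a pair of unrelated proteins from separate first exons: p16Ink4a, an INK4 protein, and p19Arf, which stabilises p53 by binding MDM2. Cdkn2b (p15Ink4b) lies beside it, and both accumulate in cultured fibroblasts as they approach senescence. Cdkn1a (p21) is the classical p53 target, and the p27 protein encoded by Cdkn1b is controlled largely by its turnover. AKT is known to restrain p21 and p27 by phosphorylating them and Cdkn1b transcription by way of FOXO factors. The present data measure RNA and not phosphorylation or protein.

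The promoters of the INK4 genes that passed the test, Cdkn2b and Cdkn2c, and of Cdkn2a, the neighbour of Cdkn2b, are shown so that their base composition and motifs can be compared. Each is 300 bases from RefSeq on GRCm38.p6, 5′ to 3′ on the gene's own strand (minus for all 3), from 250 bases before the annotated start (position 0) onward. Capitals mark the motifs found: GGGCGG (an Sp1-type GC box), CCAAT or its reverse complement ATTGG, and TTTCCCGC (an E2F-type motif).
Cdkn2b, chr4:89310983-89311282: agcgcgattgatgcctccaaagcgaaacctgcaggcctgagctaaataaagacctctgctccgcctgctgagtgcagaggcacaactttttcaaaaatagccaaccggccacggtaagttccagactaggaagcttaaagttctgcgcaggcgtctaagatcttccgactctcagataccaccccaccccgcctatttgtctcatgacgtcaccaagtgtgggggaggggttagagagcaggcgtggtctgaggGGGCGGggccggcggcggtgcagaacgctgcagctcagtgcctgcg
Cdkn2c, upstream start, chr4:109666707-109667006: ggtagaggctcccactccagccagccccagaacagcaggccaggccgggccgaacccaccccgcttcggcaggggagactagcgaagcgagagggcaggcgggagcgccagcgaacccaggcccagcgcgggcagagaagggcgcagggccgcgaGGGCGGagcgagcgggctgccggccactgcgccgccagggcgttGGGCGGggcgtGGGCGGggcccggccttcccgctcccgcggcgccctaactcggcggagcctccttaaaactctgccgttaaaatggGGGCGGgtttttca
Cdkn2c, downstream start, chr4:109665323-109665622: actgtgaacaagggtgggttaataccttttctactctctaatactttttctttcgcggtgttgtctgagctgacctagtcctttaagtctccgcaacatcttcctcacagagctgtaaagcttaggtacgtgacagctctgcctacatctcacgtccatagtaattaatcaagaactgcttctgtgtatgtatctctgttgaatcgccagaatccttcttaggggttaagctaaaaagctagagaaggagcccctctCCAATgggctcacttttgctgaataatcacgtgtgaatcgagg
Cdkn2a, p19Arf start, chr4:89294570-89294869: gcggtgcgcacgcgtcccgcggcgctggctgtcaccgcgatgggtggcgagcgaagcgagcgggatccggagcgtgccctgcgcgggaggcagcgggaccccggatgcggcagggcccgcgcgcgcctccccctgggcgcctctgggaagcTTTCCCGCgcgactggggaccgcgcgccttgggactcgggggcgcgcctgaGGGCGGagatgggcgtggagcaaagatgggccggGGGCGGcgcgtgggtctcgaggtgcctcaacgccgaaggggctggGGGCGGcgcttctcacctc
Cdkn2a, p16Ink4a start, chr4:89282143-89282442: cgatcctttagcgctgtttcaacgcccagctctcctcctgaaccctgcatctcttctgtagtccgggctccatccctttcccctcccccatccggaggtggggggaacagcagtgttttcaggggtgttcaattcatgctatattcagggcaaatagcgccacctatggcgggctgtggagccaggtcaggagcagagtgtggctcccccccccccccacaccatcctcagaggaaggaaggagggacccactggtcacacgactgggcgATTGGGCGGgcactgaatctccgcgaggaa

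The Cdkn2b promoter was 57.7% GC with 18 CpG dinucleotides and held a GC box at positions 4 to 9. The upstream Cdkn2c promoter was richer, at 73.3% GC with 33 CpG and 4 GC boxes, whereas the downstream one was 44.0% GC with 8 CpG and a CCAAT box. The p19Arf promoter had the most CpG of the 5 shown, 45 at 77.0% GC, with an E2F-type motif at positions -99 to -92. The p16Ink4a promoter had 12 CpG at 60.3% GC. Over the 32851 promoters in the table, the median was 52.7% GC and 7 CpG. GGGCGG or its reverse complement occurred in 35.7% of those promoters, CCAAT or ATTGG in 37.4%, and TTTCCCGC or TTTGGCGC, on either strand, in 1.56%. The FOXO motif TGTTTAC (3.65% of all promoters) and TATAAA (13.6%), also searched on both strands, were found in none of the windows of the 6 members that matched the table. Cdkn1c had no entry.

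**Figure D1:**
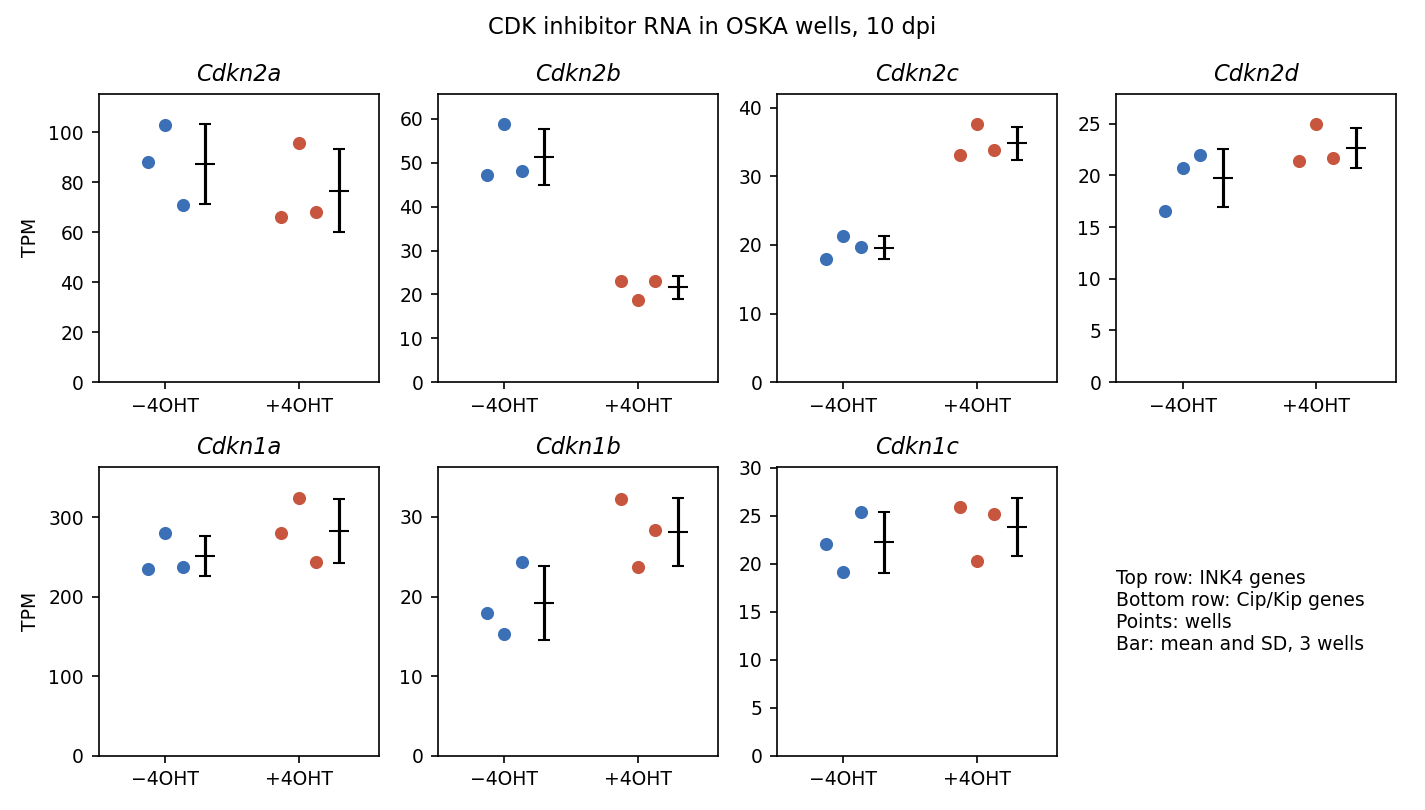
RNA level in TPM of each CDK inhibitor gene in the 3 OSKA − 4OHT wells (blue) and the 3 OSKA + 4OHT wells (red), with mean and SD beside them; every axis starts at 0. Cdkn2b sat at 47.3 to 58.7 TPM without 4OHT and 18.7 to 23.1 TPM with it, Cdkn2c was separated in the opposite direction, and the wells of the other 5 genes overlapped.

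Cdkn2b, which encodes p15Ink4b and occupies chr4:89306299-89311039 on GRCm38 (minus strand, ENSMUSG00000073802), fell with 4OHT. Its level was 47.3, 58.7 and 48.1 TPM in the OSKA − 4OHT wells and 23.1, 18.7 and 23.1 TPM in the OSKA + 4OHT wells. The groups did not overlap, and the highest treated well was well under the lowest untreated one. The mean went from 51.3 ± 6.40 to 21.6 ± 2.56 TPM (SD, n = 3 each), 2.38-fold lower. The fitted log2 fold change on log2(TPM + 0.5) was -1.23 (SE 0.174; 95% interval -1.65 to -0.81), with an adjusted p of 0.0159 (limma, Benjamini-Hochberg over all 15382 genes). Among the fits that left out a well, the adjusted p rose to 0.0649, 0.0651 and 0.0604 when OSKA + 4OHT replicate 1, OSKA + 4OHT replicate 2 or OSKA − 4OHT replicate 2 was left out, and it was 0.0454 to 0.0471 without each of the other 3 wells.

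Cdkn2c, the gene of p18Ink4c at chr4:109660876-109667189 (minus strand, ENSMUSG00000028551), moved the other way. Its level was 17.9, 21.3 and 19.6 TPM without 4OHT and 33.1, 37.6 and 33.8 TPM with it, with no overlap. The mean rose from 19.6 ± 1.68 to 34.8 ± 2.40 TPM (SD, n = 3 each), 1.77-fold. The fitted log2 fold change was 0.81 (SE 0.157; 95% interval 0.43 to 1.19) with an adjusted p of 0.0394 by limma. This call was close to the threshold. Among the fits without a replicate block, it was lost in each of the 6 fits that left out a well (adjusted p 0.0858 to 0.144; log2 fold change 0.75 to 0.87), when the wells were rescaled by a trimmed mean of log ratios (0.0545) or quantile normalized (0.0564), and in limma without a trend (0.0610).

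Cdkn2a (chr4:89274471-89294653, minus strand, ENSMUSG00000044303) lies 11646 bases from Cdkn2b and did not pass the test. Its level was 88.0, 102.8 and 71.0 TPM without 4OHT and 66.0, 95.8 and 68.0 TPM with it. The groups overlapped, and replicate 2 was the highest well of each. The means were 87.3 ± 15.9 and 76.6 ± 16.6 TPM, and the 95% interval of the log2 fold change (-0.19) ran from -0.71 to 0.32 (adjusted p = 0.646, limma). The deposited value is per gene, so that the p16Ink4a transcript (852 bases) and the p19Arf transcript (895 bases), which share their later exons, are added together and a shift from one to the other would not be seen.

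Cdkn2a and Cdkn2b are related in sequence, so it was checked whether reads of one could be counted for the other. The longest run shared by their transcripts was 23 bases, in coding exon 2 of both: chr4:89276855-89276877 in Cdkn2a and chr4:89307184-89307206 in Cdkn2b. No 50-base window, the length of the reads, was common to both. The shared run is shown because it is the closest stretch between these genes.
Run shared by Cdkn2a and Cdkn2b: cgggaaggcttcctggacacgct

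Cdkn2d, which encodes p19Ink4d (chr9:21288410-21291407, ENSMUSG00000096472), was 16.6, 20.7 and 21.9 TPM without 4OHT and 21.4, 24.9 and 21.7 TPM with it. The wells overlapped, and the log2 fold change was 0.20 (95% interval -0.24 to 0.64; adjusted p = 0.575, limma).

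None of the 3 Cip/Kip genes passed the test in limma, 0 had an unadjusted p under 0.05, and in each the groups overlapped. Of all 15382 tested genes, 5.49% passed, 21.3% had an unadjusted p under 0.05 and 28.2% had groups that did not overlap. Counts of 0 among 3 genes therefore do not set this family apart from the background. Cdkn1a (chr17:29090976-29100727, ENSMUSG00000023067), encoding p21, was the most abundant CDK inhibitor RNA in every well. It was at 235.0, 279.7 and 237.8 TPM without 4OHT and 279.8, 324.0 and 243.8 TPM with it. The means of 250.8 ± 25.0 and 282.5 ± 40.2 TPM gave a log2 fold change of 0.17 (95% interval -0.19 to 0.52; adjusted p = 0.566, limma), an interval that spans ratios of 0.879 to 1.43.

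Cdkn1b (chr6:134920401-134925513, ENSMUSG00000003031), encoding p27, had the largest ratio between the groups in this family. Its level was 17.9, 15.3 and 24.3 TPM without 4OHT and 32.2, 23.6 and 28.4 TPM with it. Of the treated wells, 2 lay above all untreated wells and the remaining one below the highest of them. The means were 19.2 ± 4.65 and 28.1 ± 4.30 TPM, a ratio of 1.47, and the log2 fold change was 0.55 (95% interval -0.0047 to 1.11; adjusted p = 0.237, limma). Cdkn1c (chr7:143458339-143461050, ENSMUSG00000037664), the imprinted gene of p57, was 22.1, 19.1 and 25.4 TPM without 4OHT and 25.95, 20.3 and 25.2 TPM with it. Its log2 fold change was 0.10 (95% interval -0.36 to 0.56; adjusted p = 0.804, limma), and its sign turned under both rescalings.

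**Figure D2:**
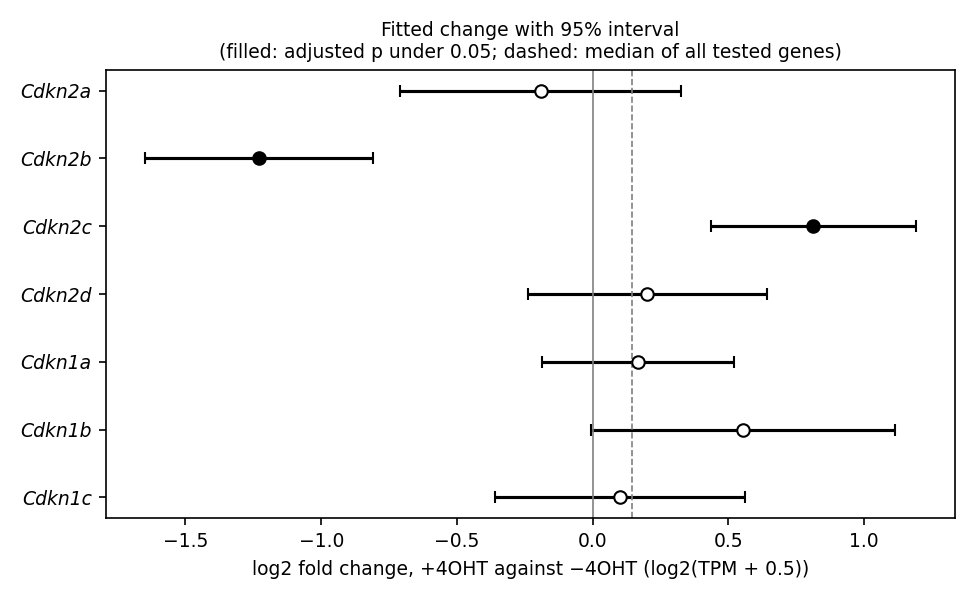
Fitted log2 fold change of OSKA + 4OHT against OSKA − 4OHT for the 7 genes, on log2(TPM + 0.5), with its 95% interval; filled points had an adjusted p under 0.05, and the dashed line is the median of all tested genes (0.14). Only the intervals of Cdkn2b and Cdkn2c exclude 0.

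Across the 7 genes, 2 passed an adjusted p of 0.05, 1 lower and 1 higher, where 5.49% of all 15382 tested genes did (3.52% higher and 1.97% lower). With a change of more than 2-fold required as well, 1 of the 7 passed, Cdkn2b, against 4.23% of all tested genes. The wells of 2 of the 7 did not overlap between groups, a share near the background, since 28.2% of all tested genes showed the same. Of the genes called over the whole table, 64.1% were higher with 4OHT, and this share was 51.3% after rescaling by a trimmed mean and 49.7% after quantile normalization. Over all tested genes the log2 fold change had a median of 0.14 as deposited, 0.04 after trimmed-mean scaling and -0.0047 after quantile normalization. Relative to that median of 0.14, the log2 fold change was -1.37 for Cdkn2b, 0.67 for Cdkn2c, 0.41 for Cdkn1b, -0.34 for Cdkn2a, and between -0.04 and 0.06 for Cdkn1a, Cdkn1c and Cdkn2d.

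The order of the 7 RNA levels differed between the groups. Without 4OHT, mean TPM decreased from Cdkn1a to Cdkn2a, Cdkn2b, Cdkn1c, Cdkn2d, Cdkn2c and Cdkn1b. The first 3 steps in that order separated genes whose wells did not overlap, and the last 4 genes overlapped with their neighbours. With 4OHT the order was Cdkn1a, Cdkn2a, Cdkn2c, Cdkn1b, Cdkn1c, Cdkn2d and Cdkn2b. Here Cdkn2c stood just clear of Cdkn1b, its lowest well at 33.1 TPM against 32.2 TPM in the highest well of Cdkn1b, and the last 4 again overlapped with their neighbours. Cdkn2b thus went from the 82.3rd percentile of level among tested genes to the 61.7th, while Cdkn2c went from the 61.6th to the 73.3rd.

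The summed RNA of the INK4 genes overlapped between the groups, whereas its composition did not. The sum was 169.8, 203.5 and 160.6 TPM without 4OHT and 143.6, 176.9 and 146.6 TPM with it. Cdkn2b made up 27.8%, 28.9% and 29.9% of that sum without 4OHT and 16.1%, 10.5% and 15.8% with it. Cdkn2c made up 10.6%, 10.5% and 12.2% without and 23.1%, 21.2% and 23.1% with it. Both shares were separated between the groups, whereas the share of Cdkn2a was 48.9% ± 4.08 and 48.8% ± 4.60 (SD, n = 3 each). Shares of a sum are tied together, so that a lower share of Cdkn2b raises the others. The share of Cdkn2d was also separated (9.76% to 13.7% without and 14.1% to 14.9% with 4OHT), although its TPM overlapped, and its share of the INK4 sum taken without Cdkn2b overlapped too. Within a well, Cdkn2b exceeded Cdkn2c 2.64-, 2.76- and 2.45-fold in the untreated group. In the treated group the ratio of Cdkn2b to Cdkn2c was 0.697, 0.497 and 0.683, so that their order was inverted in all 3 wells. The separation of this ratio follows from the opposite changes of Cdkn2b and Cdkn2c given above and is not a further result. The ratio of Cdkn2a to its neighbour Cdkn2b was 1.86, 1.75 and 1.48 without 4OHT and 2.86, 5.14 and 2.94 with it.

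**Figure D3:**
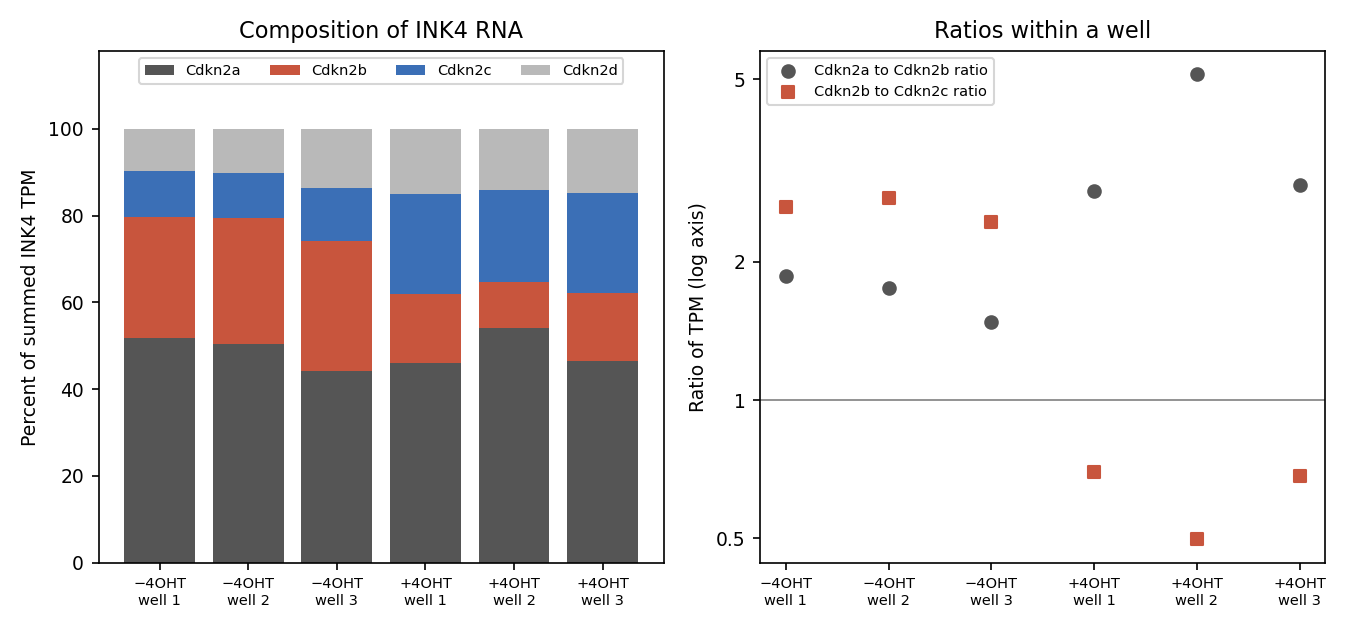
Left, percent of the summed INK4 TPM that each INK4 gene contributed in each well; right, the ratio of Cdkn2a to Cdkn2b (circles) and of Cdkn2b to Cdkn2c (squares) in the same wells, on a log axis with a line at 1. The ratio of Cdkn2b to Cdkn2c is above 2 in the untreated wells and below 1 in all treated wells, while the dark grey Cdkn2a shares of the groups overlap.

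The families were then set against each other. The Cip/Kip sum was 275.0, 314.1 and 287.6 TPM without 4OHT and 338.0, 368.0 and 297.3 TPM with it, overlapping between groups, and most of it was Cdkn1a. The INK4 genes together held 38.2%, 39.3% and 35.8% of the RNA of the 7 genes without 4OHT and 29.8%, 32.5% and 33.0% with it. These shares did not overlap. The share of Cdkn1a in the 7 genes was separated as well, at 52.8%, 54.0% and 53.1% without 4OHT and 58.1%, 59.5% and 54.9% with it. The TPM of Cdkn1a itself overlapped, and a lower Cdkn2b raises the share of every other gene in the sum. Whether the Cdkn1a share stayed separated without Cdkn2b was not tested. Only Cdkn2b was left out for comparison, and the separation of the INK4 share was lost without Cdkn2b. Without it, an alternative chosen after seeing the data, the remaining INK4 genes summed to 126.6 ± 16.5 TPM without and 134.1 ± 20.99 TPM with 4OHT, and their share of the remaining 6 genes was 30.8%, 31.5% and 28.1% without and 26.3%, 30.1% and 29.3% with 4OHT, which overlapped. The total of the 7 genes was 470.2 ± 41.1 TPM without and 490.1 ± 51.1 TPM with 4OHT (SD, n = 3 each), which overlapped.

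Genes around the members on the chromosome were examined within 200 kb. Of the other tested genes near Cdkn2a and Cdkn2b, Mtap, a methionine salvage enzyme, was at 29.4 ± 5.24 and 28.4 ± 2.74 TPM (adjusted p = 0.933, limma), and the long non-coding Gm12606 was at 3.17 ± 1.56 and 2.78 ± 1.96 TPM (adjusted p = 0.841, limma). Neither passed, so that Cdkn2b was the only tested gene called in that window. No neighbour of the other 5 members was called either, among 3 tested around Cdkn2c, 15 around Cdkn2d, 7 around Cdkn1a, 6 around Cdkn1b and 5 around Cdkn1c. Over all tested genes 5.49% were called, so that few or no calls among so few neighbours do not set these windows apart. Annotated genes on the opposite strand overlap Cdkn1a and Cdkn1c. The one over Cdkn1a, AC167363.2, was below 1 TPM in all wells, and the one over Cdkn1c, Gm44732, was at 9.86, 1.26 and 3.45 TPM without and 1.22, 0 and 0 TPM with 4OHT (adjusted p = 0.172, limma). Whether strand was used in the counting is not given in the sources used here.

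Among the kinases and cyclins that these inhibitors bind, Cdk1, Ccnb1 and Cdk2 rose and Cdk6 fell. Of 11 such genes, 3 rose and 1 fell, and the list's median log2 fold change was 0.61 against 0.14 over all tested genes. For this and the lists that follow, the share of all tested genes called was 3.52% higher and 1.97% lower. Cdk1, the mitotic kinase, was 61.5, 57.6 and 54.5 TPM without 4OHT and 151.1, 126.7 and 124.9 TPM with it (log2 fold change 1.20, SE 0.137; adjusted p = 0.00879, limma). Its partner Ccnb1 rose from 36.3 ± 6.26 to 94.9 ± 16.2 TPM (adjusted p = 0.0174, limma). Cdk2, the main Cip/Kip target, was 17.3, 15.7 and 12.2 TPM without and 30.3, 29.4 and 27.9 TPM with 4OHT (log2 fold change 0.95, SE 0.189; adjusted p = 0.0427, limma). Cdk6, an INK4 target, was 27.6, 33.5 and 32.1 TPM without and 19.2, 17.7 and 17.1 TPM with 4OHT, with an adjusted p of 0.04996 (limma) at the very edge of the threshold. The other INK4 target Cdk4 was at 323.7 ± 7.89 and 345.4 ± 89.8 TPM, and its partner Ccnd1 at 361.5 ± 39.2 and 352.3 ± 50.2 TPM. Neither of these was called (adjusted p = 0.904 and 0.902, limma), nor was Ccne1, the cyclin E1 gene, at 13.4 ± 7.11 and 29.7 ± 7.83 TPM (adjusted p = 0.146).

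Downstream of the kinases, none of the 11 pocket protein and E2F genes passed (median log2 fold change 0.36). Rb1 was at 69.7 ± 8.58 TPM without 4OHT and 61.3 ± 0.440 TPM with it (adjusted p = 0.545, limma). Among 15 E2F-driven S phase genes 2 rose and 0 fell, with a median of 0.76. Rrm2, a ribonucleotide reductase subunit, went from 102.6 ± 20.8 to 207.2 ± 18.5 TPM (adjusted p = 0.0320, limma). Tk1, thymidine kinase, went from 30.2 ± 7.13 to 73.2 ± 17.2 TPM (adjusted p = 0.0457, limma).

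None of the genes listed as regulators of the Ink4/Arf locus or of p27 passed. The regulators of the Ink4/Arf locus, among them Polycomb proteins, were 0 called of 16 (median log2 fold change 0.13), with Bmi1, a Polycomb repressor of Cdkn2a, at 39.7 ± 1.14 and 40.9 ± 1.74 TPM (adjusted p = 0.892, limma). Of 11 genes of p27 turnover and control, 0 were called (median -0.11). Among them Skp2, the ubiquitin ligase subunit that recognises p27, was 3.23, 5.44 and 5.90 TPM without and 11.9, 10.2 and 8.79 TPM with 4OHT, without overlap and with an adjusted p of 0.0995 (limma). By unadjusted p under 0.05 the locus regulators held 6 genes, the p27 list 2 and the pocket protein list 4, where 21.3% of all tested genes passed that level.

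On the p53 side, Trp53 was at 61.0 ± 11.7 TPM without and 71.7 ± 8.04 TPM with 4OHT (adjusted p = 0.516, limma). Mdm2, the p53 ubiquitin ligase that p19Arf binds, was at 138.0 ± 16.4 and 122.1 ± 23.6 TPM (adjusted p = 0.594, limma). Of 8 genes of the p53 axis and p21 control, 1 rose and 1 fell (median 0.11). The one that rose, the deacetylase Hdac1, went from 55.3 ± 5.65 to 110.1 ± 10.98 TPM (adjusted p = 0.0184, limma). Of 14 p53 targets other than Cdkn1a, 1 rose and 0 fell (median -0.17). It was Gdf15, a secreted stress factor, listed at 0, 0.657 and 0 TPM without 4OHT and at 8.95, 5.93 and 7.87 TPM with it (adjusted p = 0.0152, limma).

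Of 10 genes linked to senescence, 1 rose and 2 fell (median log2 fold change -0.22). Igfbp7, a secreted growth factor binding protein, fell from 415.9 ± 103.5 to 89.9 ± 18.2 TPM (adjusted p = 0.00697, limma). Ccl2, a monocyte chemokine, went the other way, from 535.2 ± 36.5 to 1084 ± 58.4 TPM (adjusted p = 0.00517, limma). Of the 7 genes of the imprinted domain of Cdkn1c, 4 were tested and 0 called. By unadjusted p under 0.05 that list held 1, where 21.3% of all tested genes passed that level. Counts among so few genes do not set this domain apart.

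**Figure D4:**
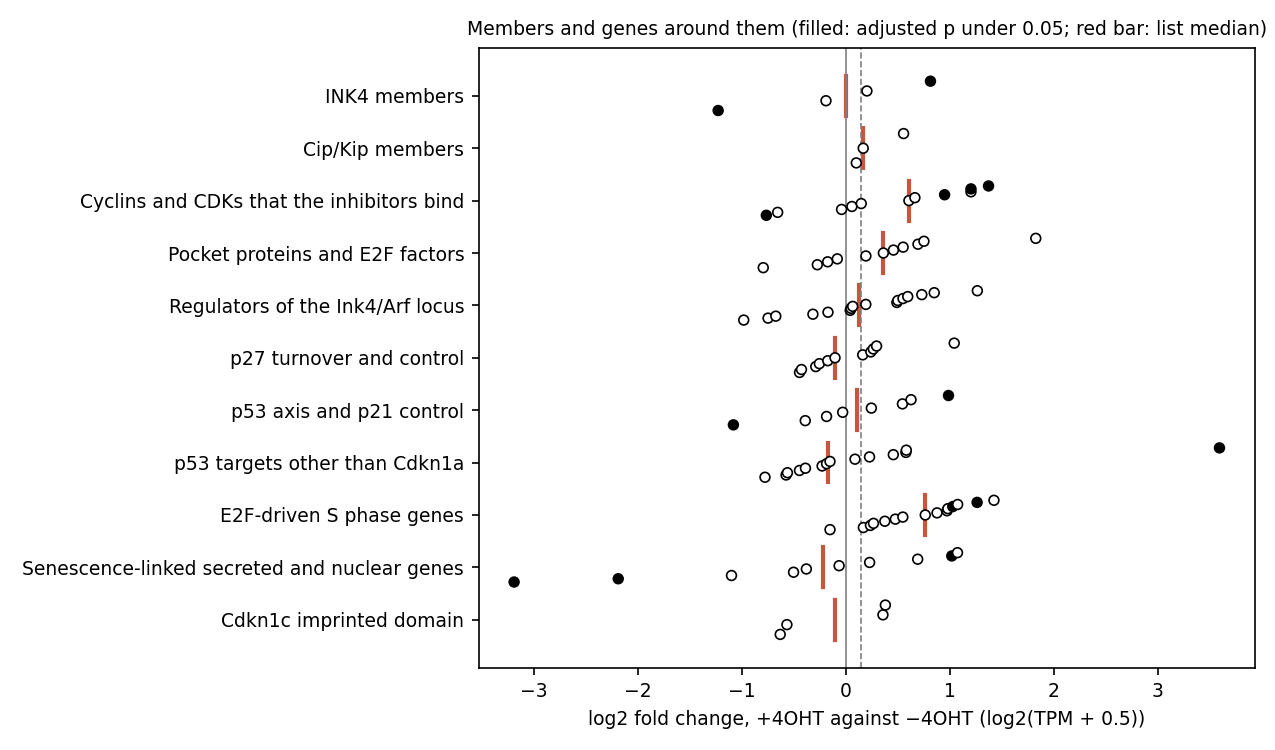
Log2 fold change of OSKA + 4OHT against OSKA − 4OHT for each tested gene, by list; filled points had an adjusted p under 0.05, red bars are list medians and the dashed line is the median of all tested genes (0.14). The INK4 genes spread to both sides, from -1.23 to 0.81, while the S phase genes lie mostly to the right, with a median of 0.76.

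Over these 9 lists, 12 of 99 tested genes passed (12.1%, against 5.49% of all tested genes), 8 higher and 4 lower. The lists were chosen with earlier results of these data known, so that these shares describe the lists and do not test them. Cdk1, Ccl2 and Igfbp7 kept an adjusted p under 0.05 in the 6 fits that left out a well. Cdk2, Cdk6 and Tk1 lost it in all 6 such fits, with adjusted p up to 0.144, 0.157 and 0.148. Ccnb1, Hdac1, Gdf15 and Rrm2 lost it at least without OSKA + 4OHT replicate 1 and without OSKA + 4OHT replicate 2, with adjusted p up to 0.0810 for Ccnb1, 0.0852 for Hdac1, 0.0909 for Gdf15 and 0.121 for Rrm2, which kept its call only without OSKA − 4OHT replicate 3. In limma without a trend, Rrm2 (0.0692), Cdk2 (0.0630), Cdk6 (0.0731) and Tk1 (0.0774) also missed the threshold. Without the filter on low genes, Cdk2 (0.0601), Cdk6 (0.0668) and Tk1 (0.0628) missed it as well, and Cdk6 did so with a pseudocount of 0.1 (0.0502) and with robust priors (0.0533). All 12 had the same sign under both rescalings, and Cdk2 was no longer called under either (adjusted p = 0.0560 after trimmed-mean scaling and 0.0669 after quantile normalization).

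Some markers of cell state moved with the treatment. Of 10 fibroblast markers 2 passed upward and 3 downward, and of 6 macrophage markers 1 passed downward. Of the 7 tested pluripotent markers 4 passed upward. Over all tested genes 3.52% were called higher and 1.97% lower. The summed level of 10 fibroblast markers was 7938 to 9479 TPM without 4OHT and 5595 to 7038 TPM with it (Fn1, Pdgfrb and Col1a2 fell, while Lum and Col3a1 rose). The calls of Lum and Col3a1 held whichever well was left out. Pdgfrb lost its call without OSKA + 4OHT replicate 1 (adjusted p = 0.0542, limma) and Fn1 without OSKA + 4OHT replicate 1 or 2 (up to 0.0630), and Col1a2 kept it only without OSKA + 4OHT replicate 3 (up to 0.0972 in the other 5 fits). In limma without a trend, Fn1 (0.0559) and Col1a2 (0.0829) also missed the threshold. Col1a2 missed it without the filter on low genes too (0.0588). The summed level of 8 pluripotent markers was 6.55 to 14.2 TPM without and 51.3 to 66.2 TPM with 4OHT. Dppa3 was listed at 0 in every well. Only the call of Dppa5a held in all 6 fits without a well. Tdgf1 lost it without each OSKA + 4OHT well (adjusted p up to 0.0706, limma), and Nanog and Zfp42 lost it in all 6 (up to 0.186 and 0.144), Nanog also under 5 other alternatives without a block (0.0501 to 0.0683) and Zfp42 under quantile normalization (0.0605) and without the filter on low genes (0.0557). Of the 6 macrophage markers, 4 had a negative and 2 a positive log2 fold change. By unadjusted p under 0.05 that list held 1, where 21.3% of all tested genes passed that level. Their summed level was 122.5 to 135.3 TPM without and 76.3 to 87.3 TPM with 4OHT. Most of it was Lyz2, which fell from 95.2 ± 5.63 to 51.8 ± 7.77 TPM (adjusted p = 0.0299, limma). That call was kept only without OSKA + 4OHT replicate 3 among the 6 fits (up to 0.114 in the others) and was lost in limma without a trend (0.0651). The part of these differences in the change of Cdkn2b and Cdkn2c was not tested, and in bulk RNA fewer cells of a type and less RNA per cell cannot be told apart.

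Genes whose levels were most like those of a member were named by Pearson correlation over the 6 wells, as a description. For Cdkn2b these were Adam9 (r = 0.996), Nos1 (r = 0.994) and Rps2 (r = 0.994), and 210 tested genes had r above 0.95. Adam9, a membrane metalloprotease, was at 110.2 ± 8.31 TPM without and 69.5 ± 2.56 TPM with 4OHT. For Cdkn1b they were Haspin (r = 0.993), Rffl (r = 0.991) and Stx2 (r = 0.988), and 48 genes had r above 0.95. All wells of a group share their treatment, which alone can give a high r.

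The depth of the libraries limits these values. TPM keep no read counts, and the depth could be read only approximately from the steps of low values. The relative depth was 0.498, 1 and 0.580 in the OSKA − 4OHT wells and 0.877, 0.912 and 0.780 in the OSKA + 4OHT wells, so that the shallowest library was untreated. By that estimate Cdkn2b rested on about 45.0 to 112.2 reads per untreated well and 32.5 to 38.7 reads per treated well. For Cdkn1c, if its shortest transcript was the one measured, the lowest well rested on about 4.62 reads.

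**Figure D5:**
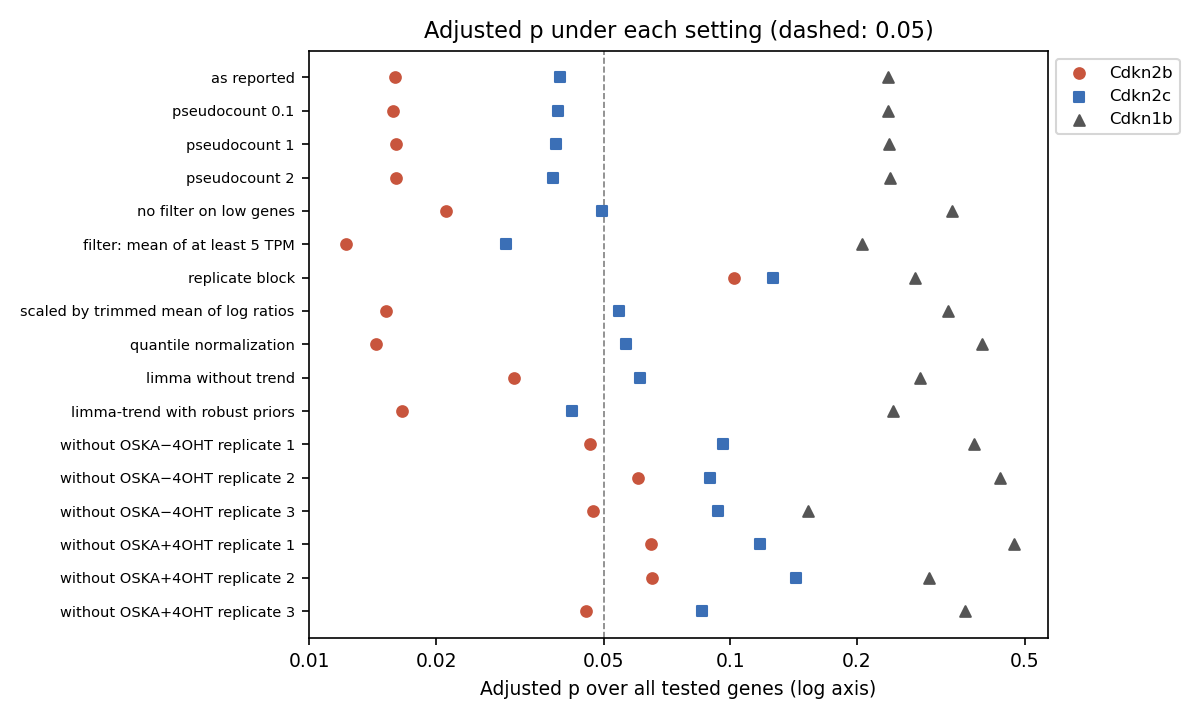
Adjusted p over all tested genes (log axis) of Cdkn2b (circles), Cdkn2c (squares) and Cdkn1b (triangles) as reported and under each of the 16 alternatives, with a dashed line at 0.05. Cdkn2b stays left of the line except with the replicate block and without 3 of the wells, Cdkn2c crosses it in 10 alternatives, and Cdkn1b is right of it throughout.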

How the data were processed

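RNA-seq of 6 wells was used, 3 per group. Per the study's methods, stranded polyA libraries were read as 50-base single ends, trimmed with Trim Galore and quantified with Salmon against the mouse transcriptome; versions and annotation are not given in the sources used here. The deposited values are TPM per gene, which the authors scaled to a total of 1000000 in every well. The authors also deposited the columns of their own comparison: a log2 fold change and log2 average level, a score (an F statistic) and a p-value per gene. These were not used.

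Symbols and positions came from GENCODE M21 on GRCm38 by Ensembl identifier (54097 of 54331 matched). Groups were compared with limma 3.58.1 (trend, no block) in R 4.3.3 on log2(TPM + 0.5) for the 15382 genes whose mean over the wells reached 1 TPM, with Benjamini-Hochberg adjustment over all of them, and called genes are those under 0.05. This script was tested on simulated data. With 3 wells against 3, an exact two-sided permutation test cannot go below 0.1, so none is given. Sums and ratios carry no test. Depth was estimated from genes with 1 transcript longer than 600 bases and an assumed fragment of 250 bases, where 37.4% to 41.8% of low values per well lay near whole reads, against 30% for evenly spread values. Similar transcripts were searched with BLAST 2.17.0. Only hits over a minimum share of the transcript were kept, and all of these were for Cdkn1a. Its 1172-base transcript Cdkn1a-203 matched 4930533I22Rik (89.2% identity over 176 bases), Guf1 (90.6% over 180) and Senp7 (89.8% over 177). Whether this moved reads between these genes was not tested. Tables were handled with Python 3.11.15 and pandas 2.3.3.

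The members and the gene lists were chosen with earlier results of these data known. Named genes are all 7 members, the called genes of each list (at most 5), 10 defining partners (Cdk4, Cdk6, Cdk2, Ccnd1, Ccne1, Rb1, Skp2, Bmi1, Trp53 and Mdm2), called neighbours and the 3 genes most correlated with the member of smallest p in each family. Genes outside that rule, namely Mtap, Gm12606, Dppa3 and the genes overlapping a member on the opposite strand, were named after their values were seen. Some genes that the rule covers are not reported here. Alternatives were other pseudocounts, filters, scalings and variance priors, a replicate block and leaving out each well.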

Additional observations from a re-analysis of the deposited data

How the results depend on the processing

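With the replicate number as a block, the adjusted p of Cdkn2b was 0.102 (log2 fold change -1.23) and that of Cdkn2c 0.126 (0.81), so that 0 of the 7 members, 1 of the pathway genes and 47 of all tested genes were called by limma, against 2, 12 and 845 without it. The block also ended the calls of Cdk1, Ccl2 and Igfbp7 (adjusted p 0.0640, 0.0640 and 0.0555). At an unadjusted p under 0.05 the unblocked fit held 3281 genes. Deviations of wells with the same number correlated at 0.0235, 0.0341 and 0.0837. OSKA + 4OHT replicate 1 correlated better with OSKA − 4OHT replicate 2 (0.0327) than with its own number. Every other well correlated best with its own number. These correlations were low and do not settle whether the number stands for a pairing of wells. Scaling by a trimmed mean of log ratios and quantile normalization each left 1 member called, with Cdkn2c at log2 fold changes of 0.70 and 0.67, as did limma without a trend (Cdkn2c 0.81, adjusted p 0.0610). Cdkn1c changed sign under those scalings (-0.0093 and -0.0486) and without OSKA − 4OHT replicate 2 (-0.00063). Leaving out each well in turn, which also means fewer samples, gave log2 fold changes of -1.29 to -1.13 for Cdkn2b and 0.75 to 0.87 for Cdkn2c, -0.00063 to 0.21 for Cdkn1c, 0 to 1 members called, 4 to 9 pathway genes called and 175 to 465 of all tested genes called. No member was called without OSKA − 4OHT replicate 2, OSKA + 4OHT replicate 1 or OSKA + 4OHT replicate 2. Beyond those fits the cause was not tested. Cdkn2a, Cdkn2d, Cdkn1a and Cdkn1b kept their direction and stayed uncalled under all 16 alternatives. Cdkn2b kept its direction under all 16.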
